A study of Mus musculus with 16 samples.

Results

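The miR-183 cluster is a group of 3 microRNA genes, Mir183, Mir96 and Mir182, and the abundance and read forms of its 5p products were measured in mature mouse sperm. The members miR-182-5p, miR-183-5p and miR-96-5p were chosen by name. A read counted for a member when it was 20 to 26 nt long and began with the first 20 bases of the mature sequence. They are 3 of the 1621 mouse microRNA arms searched in the same way, of which 545 had a read.

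MicroRNAs are short RNAs that guide Argonaute proteins to partly complementary sites in messenger RNAs, and bases 2 to 8, the seed, carry most of the pairing. An arm is the product of one side of a hairpin precursor. The cluster is processed from a shared precursor transcript and is best known from sensory organs, where it is abundant in hair cells and photoreceptors. Point mutations in the miR-96 seed cause hearing loss in mice and humans.

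The study compared sperm of Dnmt2-/- and Dnmt2+/+ males fed a diet rich in fat (HFD) or a standard one (ND). Dnmt2 (Trdmt1) is a tRNA cytosine methyltransferase. The knockout, allele Dnmt2tm1Bes, was homozygous and backcrossed onto C57BL/6NCrl, the strain of all groups, whose males were bought at 6 weeks of age. The HFD was D12492 and the ND was Diet 1415. Sperm were taken from the cauda epididymis of adults, and total RNA was made into small RNA libraries. The groups were Dnmt2-/- HFD, Dnmt2+/+ HFD, Dnmt2-/- ND and Dnmt2+/+ ND, with 2 libraries each. The labels do not say whether a library held 1 animal or a pool, nor the age at sampling or how long the diet lasted. Small RNA reads do not measure Dnmt2 mRNA, so they did not check the knockout.

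All 3 genes lie within 3820 bases on the minus strand of chromosome 6 (GRCm38.p6), inside the long non-coding RNA gene Mirc35hg at chr6:30158640-30174125. Mir96 and Mir183 are 116 bases apart, and Mir182 lies 3453 bases from Mir96. Their hairpins in RefSeq are printed 5′ to 3′ with the mature 5p arm in capitals, since the read forms described further on are judged against them. Mir183 occupies chr6:30169668-30169737, Mir96 occupies chr6:30169446-30169551 and Mir182 occupies chr6:30165918-30165992.
Mir183 hairpin: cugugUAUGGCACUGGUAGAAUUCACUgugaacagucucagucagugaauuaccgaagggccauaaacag
Mir96 hairpin: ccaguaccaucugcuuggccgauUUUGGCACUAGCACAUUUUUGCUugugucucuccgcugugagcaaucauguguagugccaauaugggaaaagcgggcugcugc
Mir182 hairpin: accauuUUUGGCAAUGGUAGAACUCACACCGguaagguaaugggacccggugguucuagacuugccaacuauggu

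The mature sequences show how close the members are to one another, and capitals here mark the seed.
miR-183-5p: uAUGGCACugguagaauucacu
miR-96-5p: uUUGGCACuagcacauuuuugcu
miR-182-5p: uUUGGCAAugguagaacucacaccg
The seed of miR-96-5p is shared with miR-1271-5p, which had 1 read in all 8 libraries together. No other arm in the table shares the seed of miR-182-5p or of miR-183-5p. At the level of bases 2 to 7, miR-182-5p and miR-96-5p are identical. Over the first 20 bases miR-182-5p and miR-183-5p have the same base at 17 positions, so at least 3 mismatches separate the reads of any pair of members.

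The libraries held 10165031 to 13305449 reads on HFD and 13150403 to 19030258 on ND. MicroRNAs made up 2.61% to 7.01% of the HFD reads and 1.08% to 2.76% of the ND reads, so a member was measured within a small class of sperm RNA. Libraries also fell into 3 sets by their read errors. Each rate counts reads with 1 changed base per 10000 reads of the unchanged sequence. It is the median over the 100 most abundant of the longer sequences with the original base there. Set A, with 389.9 to 455.1 G-to-T changes per 10000 reads at read base 29 (4.15 or fewer elsewhere), held both Dnmt2-/- ND libraries and Dnmt2+/+ ND replicate 1. Set B, with 9.44 to 10.4 C-to-G changes per 10000 at base 26 (1.17 or fewer elsewhere), held Dnmt2-/- HFD replicate 1 and the 2 Dnmt2+/+ HFD libraries. Set C held the remaining libraries, Dnmt2-/- HFD replicate 2 and Dnmt2+/+ ND replicate 2. Set A is all ND and set B all HFD, so set and diet cannot be told apart except in set C, where the single libraries also differ in genotype.

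miR-182-5p was the most abundant member in every library, miR-183-5p followed at a fraction of its level, and miR-96-5p was a rare species. miR-182-5p averaged 369.6 ± 121.4 reads per 1000000 reads sequenced (CPM; SD, n = 8) and ranked 16 of the 545 arms by mean CPM. miR-183-5p averaged 131.6 ± 59.4 CPM and ranked 23, and miR-96-5p averaged 6.16 ± 4.98 CPM and ranked 97. The arms on the other side of the hairpins were nearly absent: miR-182-3p had 7 reads in 2 libraries, and miR-183-3p and miR-96-3p had none, which allows up to 0.158 to 0.295 CPM by library.

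miR-182-5p stood at 374.0 and 248.7 CPM in Dnmt2-/- HFD sperm and at 500.5 and 551.7 CPM in Dnmt2+/+ HFD sperm. On ND it stood at 204.3 and 308.4 CPM in Dnmt2-/- sperm and at 442.5 and 326.8 CPM in Dnmt2+/+ sperm. Both Dnmt2+/+ HFD libraries lay above all others, and within each diet both Dnmt2-/- libraries lay below both Dnmt2+/+ libraries. Of the 187 arms with enough reads for a test, 38% lay so on HFD, 36.4% on ND and 13.9% on both diets, while 2.14% had both Dnmt2-/- libraries above on HFD and 0% on ND. HFD and ND libraries overlapped.

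For miR-183-5p the Dnmt2-/- HFD libraries had 185.3 and 88.2 CPM and the Dnmt2+/+ HFD libraries 184.0 and 217.0 CPM. The Dnmt2-/- ND libraries had 52.5 and 72.5 CPM and the Dnmt2+/+ ND libraries 132.8 and 120.7 CPM. The 3 set B libraries were highest, the 2 Dnmt2-/- ND libraries were lowest, and Dnmt2-/- HFD replicate 2 lay below both Dnmt2+/+ ND libraries.

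miR-96-5p had 9.51 and 1.13 CPM in Dnmt2-/- HFD sperm, 12.0 and 11.1 CPM in Dnmt2+/+ HFD sperm, 1.90 and 1.29 CPM in Dnmt2-/- ND sperm, and 1.89 and 10.4 CPM in Dnmt2+/+ ND sperm. These values rest on 98, 15, 124, 113, 25, 17, 36 and 142 reads in the same order. Libraries lay either between 1.13 and 1.90 CPM or between 9.51 and 12.0 CPM, 4 in each range, with nothing in between. The 2 replicates of a group fell on different sides both in Dnmt2-/- HFD and in Dnmt2+/+ ND sperm. Set C likewise had 1 library on each side. In whole sperm preparations such as these, fewer cells of a kind and less RNA per cell cannot be told apart.

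**Figure D1:**
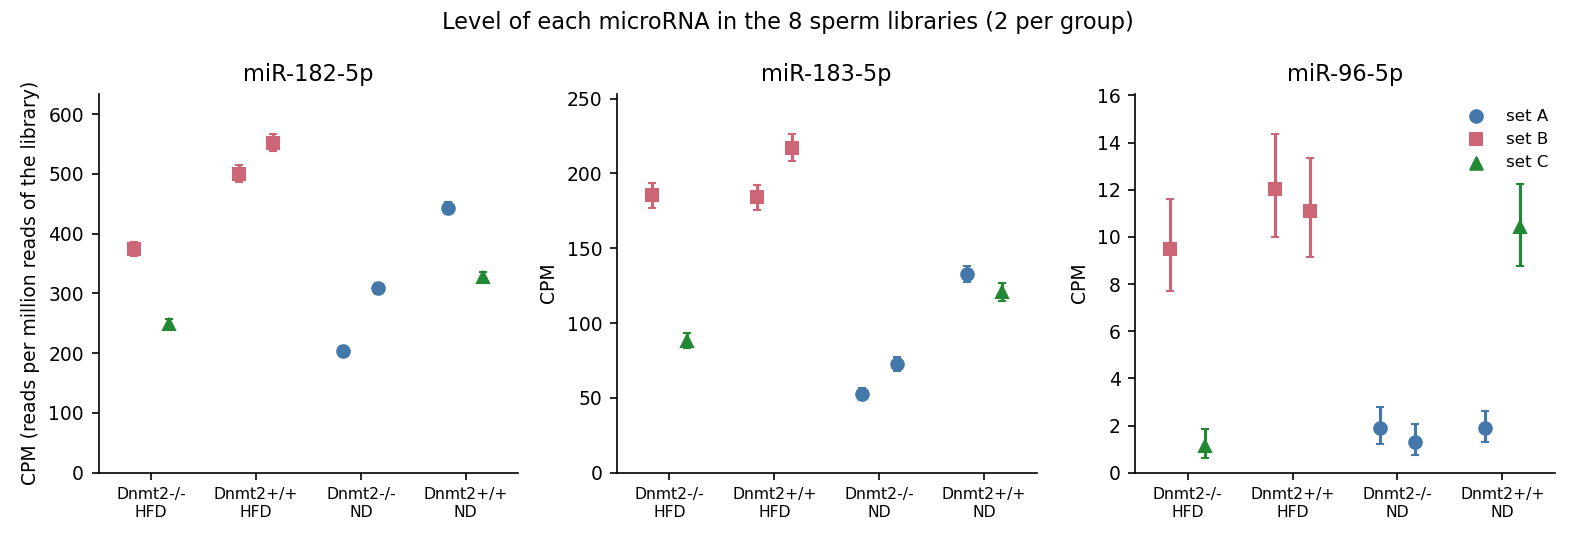
Level of each member in CPM (vertical axis, linear, from 0) in the 8 sperm libraries, grouped on the horizontal axis by genotype and diet with 2 libraries each. Bars are 95% exact Poisson intervals of the read count, colours and shapes mark the set by read errors, and miR-96-5p falls into libraries at 1.13 to 1.90 and at 9.51 to 12.0 CPM.

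The members did not keep 1 ratio to each other. Reads that start 1 base after the mature start, described further on for miR-183-5p, are outside these counts. miR-182-5p had 2.02 and 2.82 reads per read of miR-183-5p in Dnmt2-/- HFD sperm, 2.72 and 2.54 in Dnmt2+/+ HFD sperm, 3.89 and 4.25 in Dnmt2-/- ND sperm and 3.33 and 2.71 in Dnmt2+/+ ND sperm. The log2 ratio averaged 1.32 ± 0.22 on HFD and 1.81 ± 0.29 on ND (SD, n = 4 each), and the groups overlapped. This difference did not pass (two-sided exact permutation p = 0.0857, adjusted p = 0.314 over the 22 comparisons of cluster abundance, ratios and read forms). In set C this log2 ratio was 1.496 in the Dnmt2-/- HFD library and 1.438 in the Dnmt2+/+ ND library, a difference of 0.06. With 1 library a side, diet and genotype cannot be told apart there.

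miR-182-5p had 31.4 to 238.5 reads per read of miR-96-5p, and miR-183-5p had 11.6 to 78.2. Against miR-182-5p, miR-96-5p was scarcest in Dnmt2-/- ND replicate 2, Dnmt2+/+ ND replicate 1 and Dnmt2-/- HFD replicate 2, at ratios of 238.5, 233.9 and 220.6. Dnmt2-/- ND replicate 1 followed at 107.7, and the other libraries lay between 31.4 and 49.6. The log2 ratio of miR-96-5p to miR-182-5p averaged -6.02 ± 1.18 on HFD and -6.87 ± 1.37 on ND (SD, n = 4 each; two-sided exact permutation p = 0.429, adjusted p = 0.673).

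**Figure D2:**
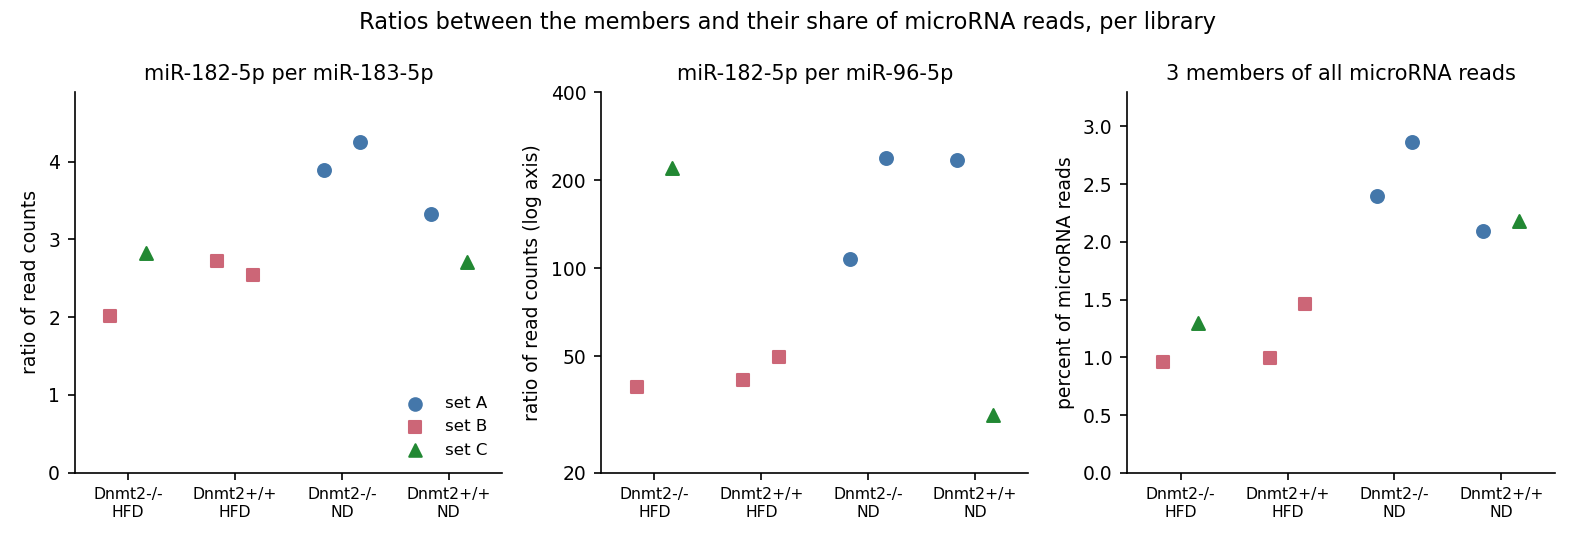
Ratios of read counts between members (left, linear axis; middle, log axis) and the percent of all microRNA reads that belong to the 3 members (right), 1 point per sperm library, by genotype and diet. Sets by read errors are marked by colour and shape, and the HFD libraries lie below all ND libraries only in the right panel (0.962% to 1.46% against 2.09% to 2.87%).

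The 3 members together had 568.8 and 338.0 CPM in Dnmt2-/- HFD sperm, 696.6 and 779.8 CPM in Dnmt2+/+ HFD sperm, 258.7 and 382.1 CPM in Dnmt2-/- ND sperm, and 577.2 and 457.9 CPM in Dnmt2+/+ ND sperm. Log2 summed CPM averaged 8.54 ± 0.47 in Dnmt2-/- and 9.27 ± 0.34 in Dnmt2+/+ libraries (SD, n = 4 each), which did not pass (two-sided exact permutation p = 0.0571, adjusted p = 0.314). Within sets, the genotype difference was -0.88 in set A, all on ND, and -0.37 in set B, all on HFD, with 1 or 2 libraries a side. For diet, log2 summed CPM averaged 9.15 ± 0.53 on HFD and 8.65 ± 0.49 on ND (p = 0.257, adjusted p = 0.566 in the same exact permutation test). In set C the Dnmt2-/- HFD library had 8.40 and the Dnmt2+/+ ND library 8.84, where diet and genotype cannot be told apart.

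As a share of microRNA reads, the cluster had a smaller value in every HFD library than in every ND library. How many other arms separated by diet on this scale was not counted, so the separation cannot be called particular to the cluster. The share was 0.962% and 1.30% in Dnmt2-/- HFD, 0.993% and 1.46% in Dnmt2+/+ HFD, 2.40% and 2.87% in Dnmt2-/- ND, and 2.09% and 2.18% in Dnmt2+/+ ND sperm. The mean of 1.18 ± 0.243% on HFD against 2.38 ± 0.347% on ND (SD, n = 4 each) gave the smallest p that 4 against 4 allows, 0.0286 (two-sided exact permutation). It did not pass after adjustment (adjusted p = 0.314). A value at this floor could pass only if most of the 22 comparisons were at it too, so this failure says little.

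The denominator of that share moved with diet too. The let-7 microRNAs, here the 16 arms of that name from either side of the hairpin, made up 43.7% to 67.3% of microRNA reads on HFD. On ND they made up 15.9% to 24.0%. With let-7 reads left out of the denominator, the cluster made up 2.96 ± 0.612% on HFD and 2.92 ± 0.436% on ND (SD, n = 4 each; two-sided exact permutation p = 0.943). The HFD libraries then ranged from 2.30% to 3.78% and the ND libraries from 2.49% to 3.41%. This denominator was chosen after the share had been seen.

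For the test of single arms, CPM were compared by edgeR's quasi-likelihood test over the 187 arms with enough reads, and all 3 members were among them. None of the members passed in any comparison (Benjamini-Hochberg adjusted p over 187 arms, threshold 0.05). Few arms passed at all: 1 arm, let-7f-5p, passed in each diet comparison, which is 0.535% of arms tested, and 0% passed in each genotype comparison and in the interaction. At unadjusted p under 0.05 the counts were 53 arms for diet in Dnmt2-/-, 18 for diet in Dnmt2+/+, 0 by genotype on HFD, 26 by genotype on ND and 2 in the interaction. DESeq2 called 3, 21, 0, 0 and 0 arms in the same order, none of them a member. The counts rest on single libraries: without Dnmt2+/+ ND replicate 1 edgeR called 68 arms for diet in Dnmt2-/- and 84 for genotype on ND, and without Dnmt2+/+ ND replicate 2 it called 68 and 72 arms for diet in Dnmt2-/- and in Dnmt2+/+. No member was among them.

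In Dnmt2-/- sperm the HFD minus ND log2 fold change was 0.28 ± 0.49 for miR-182-5p (SE, edgeR adjusted p = 0.627), 1.13 ± 0.57 for miR-183-5p (adjusted p = 0.203) and 1.73 ± 1.20 for miR-96-5p (adjusted p = 0.265). The median of the 187 arms was 2.05, so all 3 members lay under it. The value of miR-182-5p exceeded that of 6.95% of arms, that of miR-183-5p exceeded 21.4% and that of miR-96-5p exceeded 42.8%. Without Dnmt2-/- HFD replicate 1 the values of miR-182-5p and miR-96-5p were -0.04 and -0.50.

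In Dnmt2+/+ sperm the diet log2 fold changes were 0.45 ± 0.49 for miR-182-5p, 0.66 ± 0.57 for miR-183-5p and 0.92 ± 1.16 for miR-96-5p (SE, edgeR adjusted p = 0.847, 0.810 and 0.868), beside a median of 0.61 over all arms. The members thus lay around the middle of the arms here, above 41.7%, 51.9% and 62.6% of them. Neither miR-182-5p, miR-183-5p nor miR-96-5p had all 4 HFD libraries above all 4 ND libraries, as 13.9% of the 187 arms did, and none had them all below, as 0.535% did.

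By genotype, all 6 values of the members were negative, although with TMM scaling that of miR-182-5p on ND was 0.37 and those of miR-183-5p were 0.0288 on HFD and 0.0199 on ND. On ND, Dnmt2-/- minus Dnmt2+/+ gave -0.59 ± 0.49 for miR-182-5p, -1.02 ± 0.57 for miR-183-5p and -1.94 ± 1.20 for miR-96-5p (log2 fold change ± SE, edgeR adjusted p = 0.380, 0.270 and 0.278). The median of all arms was -1.65, and the value of miR-182-5p lay above that of 88.8% of arms. On HFD the values were -0.76 ± 0.49, -0.55 ± 0.57 and -1.13 ± 1.17 in the same order (edgeR adjusted p = 0.971 each), beside a median of -0.51. Over both diets together, none of the 187 arms had all 4 Dnmt2-/- libraries on 1 side of all 4 Dnmt2+/+ libraries (0%).

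The diet effect did not differ detectably between genotypes for any member. The interaction, the diet effect in Dnmt2-/- minus that in Dnmt2+/+, was -0.17 ± 0.70 for miR-182-5p, 0.47 ± 0.80 for miR-183-5p and 0.81 ± 1.64 for miR-96-5p (log2 ± SE, edgeR adjusted p = 0.892, 0.789 and 0.792). The 95% intervals ran from -1.76 to 1.42, from -1.36 to 2.30 and from -2.93 to 4.55, so differences of several-fold are within them.

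The direction of the diet fold changes turned with the scaling. Under TMM scaling, which sets the bulk of the arms to no change, the diet values in Dnmt2-/- sperm were -1.73 for miR-182-5p, -0.97 for miR-183-5p and -0.63 for miR-96-5p, and in Dnmt2+/+ sperm -1.28, -0.98 and 0.09. With the set by read errors as a term in the fit, miR-96-5p had diet values of -2.95 in Dnmt2-/- and -2.91 in Dnmt2+/+ sperm (edgeR adjusted p = 0.0799 and 0.196). In that fit the sets are linked only through the replicates of Dnmt2-/- HFD and of Dnmt2+/+ ND, 1 library a set in each. The value in Dnmt2-/- sperm was adjusted by the difference within the Dnmt2+/+ ND pair alone. That in Dnmt2+/+ sperm was adjusted by the difference within the Dnmt2-/- HFD pair alone.

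**Figure D3:**
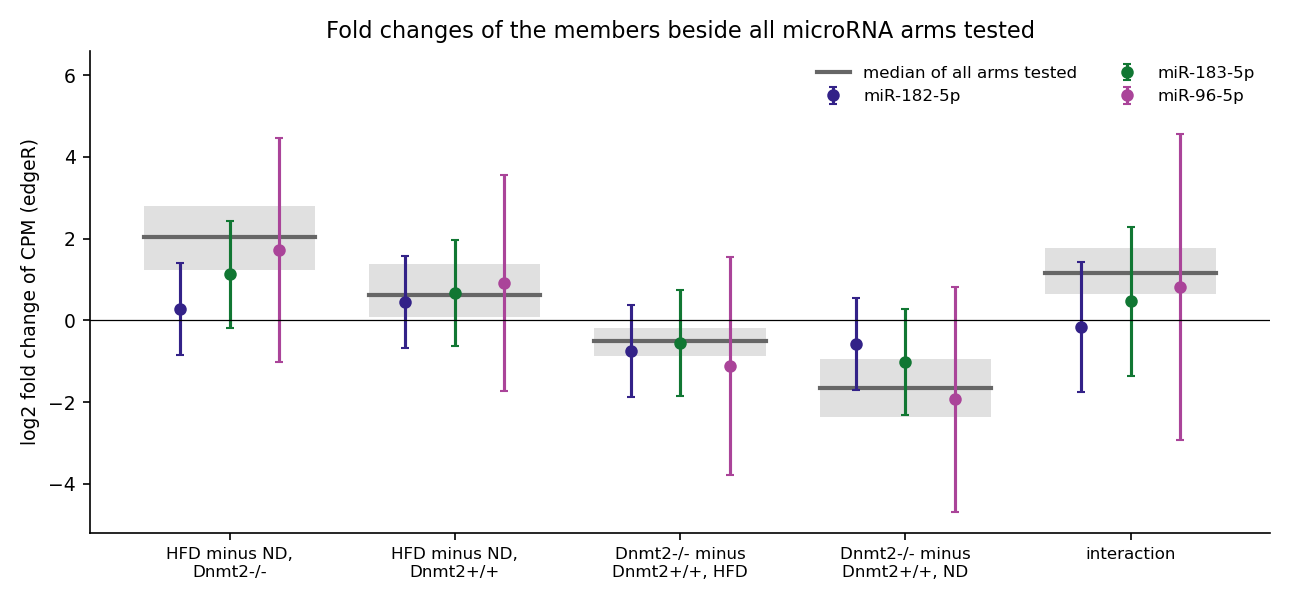
Log2 fold change of CPM from edgeR (vertical axis) for each member in 5 comparisons of sperm libraries, with 95% intervals as bars. Grey lines and boxes give the median and the interquartile range of the 187 arms tested, with a diet median of 2.05 in Dnmt2-/- and of 0.61 in Dnmt2+/+ sperm, and each member's interval includes 0 in every comparison.

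Among other arms, those whose log2 (CPM + 1) most resembled that of the summed members over the 8 libraries were miR-672-5p (Pearson r = 0.81), miR-470-5p (0.81), miR-10b-5p (0.79), miR-101a-3p (0.79) and miR-1839-5p (0.76), out of 79 arms with a mean of at least 10 CPM. miR-182-5p and miR-183-5p resembled each other with r = 0.90. These are descriptions over 8 libraries that share depth, read-error sets and microRNA content. The log2 share of microRNAs among all reads itself had r = 0.79 with miR-182-5p and 0.94 with miR-183-5p.

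Markers of germ cells and of epithelium were set beside the members, since a preparation of cauda sperm can hold other cells. All 7 germ cell and sperm markers searched had reads, and they summed to 382.8 to 838.8 CPM on HFD and 347.8 to 1554 CPM on ND. Most of each sum was miR-881-3p, at 270.0 to 727.7 CPM on HFD and 315.6 to 1398 CPM on ND. By contrast, miR-34b-5p had at most 0.295 CPM and was at 0 in some libraries. All 6 epithelial markers had reads as well, and they summed to 612 to 4012 CPM on HFD and 193 to 1935 CPM on ND. The 5 members of the miR-200 family, microRNAs of epithelia, were among these.

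The 4 libraries with 9.51 to 12.0 CPM of miR-96-5p were also the 4 highest for each miR-200 family member. This was common: 98 of the 187 arms tested (52.4%, miR-96-5p included) had the same 4 highest libraries, among them the endothelial marker miR-126a-3p. The pattern was thus not limited to the miR-200 family. In a ranking added after the planned one, 81 arms were ordered by likeness to miR-96-5p over the 8 libraries. The highest were miR-429-3p (Pearson r = 0.98), miR-22-3p (0.98), miR-205-5p (0.97), miR-29a-3p (0.95) and miR-200b-3p (0.94). With miR-200c-3p, miR-183-5p had r = 0.80 and miR-182-5p had r = 0.56. miR-429-3p had 28.3 and 3.01 CPM in Dnmt2-/- HFD, 41.9 and 42.7 CPM in Dnmt2+/+ HFD, 5.31 and 1.06 CPM in Dnmt2-/- ND, and 2.26 and 35.97 CPM in Dnmt2+/+ ND sperm. miR-200c-3p had 1808 and 251.2 CPM in Dnmt2-/- HFD, 2379 and 1762 CPM in Dnmt2+/+ HFD, 129.6 and 56.3 CPM in Dnmt2-/- ND, and 87.0 and 755.5 CPM in Dnmt2+/+ ND sperm. miR-182-5p did not follow that order: it had 442.5 CPM in Dnmt2+/+ ND replicate 1, where miR-200c-3p had 87.0 CPM, and 326.8 CPM in Dnmt2+/+ ND replicate 2, where miR-200c-3p had 755.5 CPM. The part of epithelial RNA in the member levels was not tested.

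Of the other cell types, leukocyte markers (all 4 searched had reads) summed to 34.1 to 85.5 CPM on HFD and 2.21 to 31.8 CPM on ND. Most of each sum was miR-146a-5p, at 31.6 to 81.7 CPM on HFD and 2.05 to 28.7 CPM on ND. Each of the other leukocyte markers had at most 2.62 CPM. The neural and neurosensory markers searched, miR-9-5p and miR-7a-5p, summed to 149.9 to 529.8 CPM on HFD and 54.6 to 165.6 CPM on ND. Of these, miR-7a-5p alone had 134.2 to 507.5 CPM on HFD and 51.4 to 144.8 CPM on ND. The endothelial marker miR-126a-3p had 7.82 to 19.2 CPM on HFD and 1.37 to 14.2 CPM on ND. Only 1 of 5 listed muscle markers, miR-206-3p, was searched. It had 64.7 to 75.3 CPM in the set B libraries and at most 0.676 CPM in the others. Of the red blood cell markers searched, miR-451a had 0.303 to 2.20 CPM and miR-144-3p was at 0.

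Reads of miR-182-5p took 122 distinct sequences, those of miR-183-5p 64 and those of miR-96-5p 14. The 3 most abundant forms of each member held 66.1%, 78.9% and 86.1% of its reads. They are printed because the leading form of miR-182-5p is not the mature sequence in RefSeq, and capitals mark the bases after the twentieth, where the forms differ.
miR-182-5p form 1: tttggcaatggtagaactcaCACC
miR-182-5p form 2: tttggcaatggtagaactcaCA
miR-182-5p form 3: tttggcaatggtagaactcaCACCG
miR-183-5p form 1: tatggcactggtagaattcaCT
miR-183-5p form 2: tatggcactggtagaattcaCTG
miR-183-5p form 3: tatggcactggtagaattcaCTGT
miR-96-5p form 1: tttggcactagcacatttttGCT
miR-96-5p form 2: tttggcactagcacatttttGCC
miR-96-5p form 3: tttggcactagcacatttttGCA

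The most abundant miR-182-5p form was 24 nt long, 1 base shorter than the RefSeq sequence of 25 nt, and held 35.8% of the 37553 reads. The 22-nt form held 17.1% and the RefSeq sequence itself, form 3, held 13.1%. The 24-nt form took 22.6% and 37.8% of miR-182-5p reads in Dnmt2-/- HFD, 24.96% and 20.1% in Dnmt2+/+ HFD, 43.2% and 47.9% in Dnmt2-/- ND, and 54.1% and 28.1% in Dnmt2+/+ ND sperm. It led in every library, with the highest shares in the 3 libraries of set A.

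For miR-183-5p the 22-nt RefSeq sequence led with 50.1% of 13004 reads, followed by forms 1 and 2 bases longer with 21.4% and 7.41%. The RefSeq sequence of miR-96-5p, 23 nt, held 71.9% of 570 reads. Forms 2 and 3 of miR-96-5p, with 8.77% and 5.44%, end in a base that the hairpin does not have there.

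By length, miR-182-5p had its main peak at 24 nt (34.2% to 60.6% of its reads by library) and a smaller one at 22 nt (14.2% to 22.7%). miR-183-5p peaked at 22 nt (50.6% to 65.9%) and miR-96-5p at 23 nt (83.2% to 100%). Mean read length of miR-182-5p was 23.54 ± 0.105 nt on HFD and 23.67 ± 0.0647 nt on ND (SD, n = 4 each; two-sided exact permutation p = 0.0857, adjusted p = 0.314). That of miR-183-5p was 22.40 ± 0.0303 nt and 22.40 ± 0.0833 nt (p = 1, adjusted p = 1), and that of miR-96-5p was 22.83 ± 0.0974 nt and 22.93 ± 0.0560 nt (p = 0.143, adjusted p = 0.449, exact permutation both). The genotype differences in mean length, -0.05, 0.03 and 0.07 nt, had adjusted p of 0.695, 0.695 and 0.673 in the exact permutation test.

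**Figure D4:**
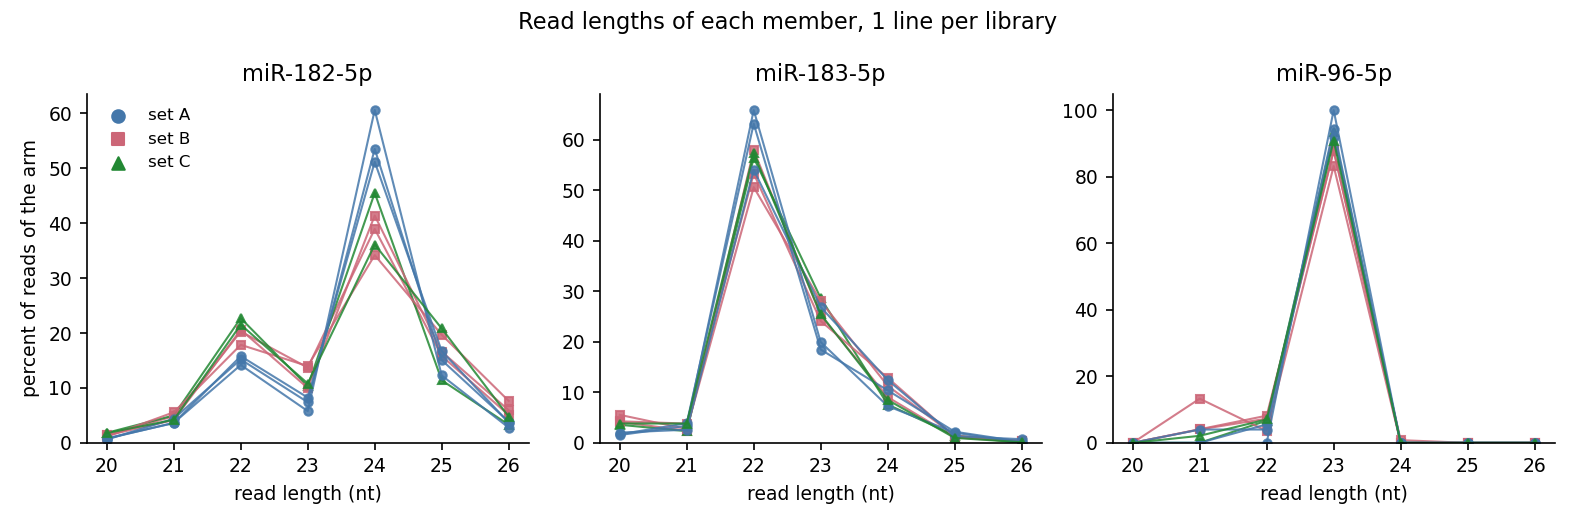
Percent of each member's reads (vertical axis) at each read length in nt (horizontal axis), 1 line per sperm library coloured by its set by read errors. miR-182-5p peaks at 24 nt with a smaller peak at 22 nt, miR-183-5p at 22 nt and miR-96-5p at 23 nt in every library.

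The share of reads equal to the RefSeq sequence was 44.8 ± 5.14% on HFD and 56.1 ± 6.56% on ND for miR-183-5p (SD, n = 4 each; two-sided exact permutation p = 0.0857, adjusted p = 0.314). For miR-96-5p it was 68.2 ± 9.21% on HFD and 88.8 ± 7.64% on ND (p = 0.0571, adjusted p = 0.314 in the exact permutation test), and for miR-182-5p 12.1 ± 1.80% and 14.5 ± 2.40% (p = 0.229, adjusted p = 0.566, same test). In set C the Dnmt2-/- HFD and Dnmt2+/+ ND libraries had 51.7% and 50.3% for miR-183-5p, and 80.0% and 77.5% for miR-96-5p. None of these differences passed.

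MicroRNA 3′ ends are known to gain bases from terminal nucleotidyl transferases, and such bases are seen as ends that depart from the hairpin. These untemplated ends made up 30.7% and 13.6% of miR-182-5p reads in Dnmt2-/- HFD, 30.1% and 31.8% in Dnmt2+/+ HFD, 13.7% and 9.77% in Dnmt2-/- ND, and 10.0% and 18.1% in Dnmt2+/+ ND sperm. Most were a single T on miR-182-5p, at 9.34% to 20.5% of its reads on HFD and 6.66% to 10.8% on ND. On miR-183-5p a single C (3.41% to 10.7% on HFD, 2.31% to 6.13% on ND) and a single A (4.26% to 8.18% and 2.06% to 4.01%) were the main ends. A base misread in sequencing looks the same as an added base.

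Untemplated ends of miR-183-5p made up 18.4 ± 4.80% of reads on HFD and 9.23 ± 2.41% on ND (SD, n = 4 each). For miR-96-5p they made up 29.6%, 20%, 24.2% and 29.2% in the HFD libraries and 4.00%, 5.88%, 2.78% and 16.9% in the ND libraries, on 15 to 142 reads a library. The diets did not overlap, but the 20%, in Dnmt2-/- HFD replicate 2, rests on 15 reads, 12 of them without such an end. How many other arms separated by diet in this way was not counted. In a family of 8 tests added after the forms had been seen, none of the diet differences passed. Their two-sided exact permutation p was 0.0857, 0.0571 and 0.0286 for miR-182-5p, miR-183-5p and miR-96-5p (adjusted p = 0.171 each). At 0.0286, the smallest p possible, a difference could pass only if most of the 8 tests were there too.

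Other arms differed between libraries too. The median share of untemplated ends over 29 other arms was 29.5% and 19.4% in Dnmt2-/- HFD, 29.8% and 32.1% in Dnmt2+/+ HFD, 20.3% and 20.5% in Dnmt2-/- ND, and 17.2% and 22.5% in Dnmt2+/+ ND sperm. The 3 libraries of set B were highest for this median and for all 3 members. The order of the other libraries differed. In Dnmt2-/- HFD replicate 2 the median lay below that of 3 ND libraries, whereas miR-96-5p, on 15 reads, lay above all 4 ND libraries. miR-183-5p lay below the median of the other arms in all 8 libraries. The part of the read-error sets in these ends was not tested.

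**Figure D5:**
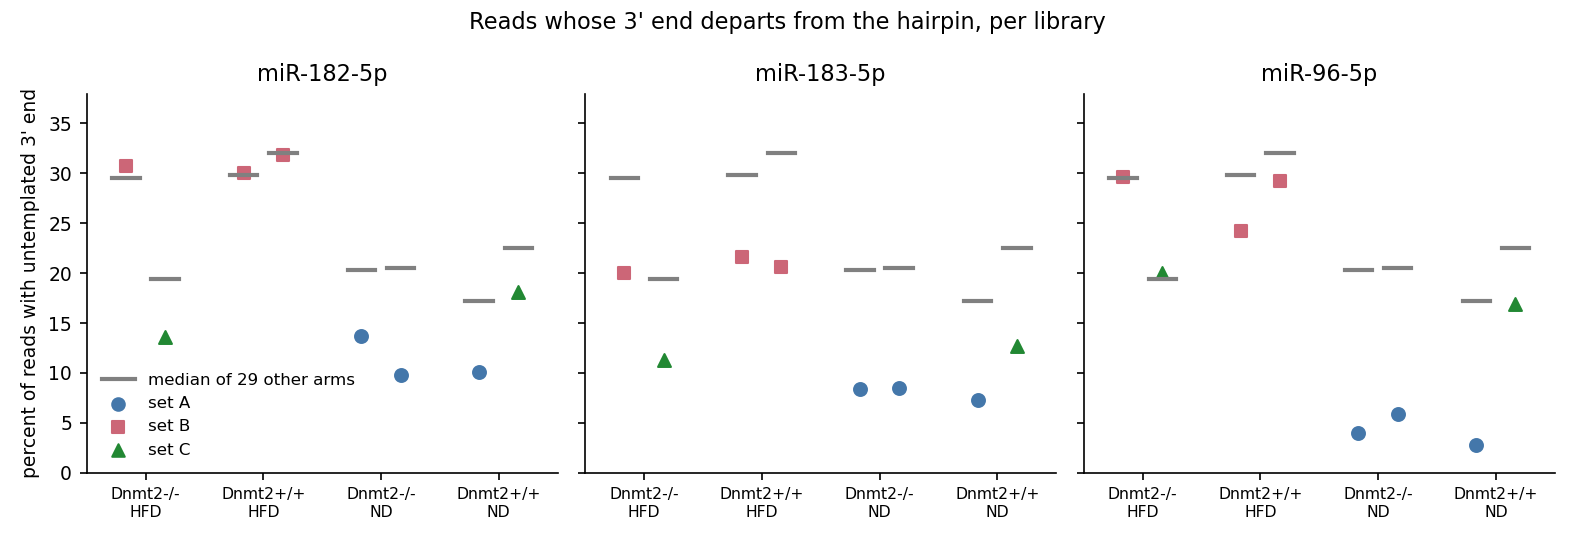
Percent of each member's reads whose 3′ end departs from the hairpin (vertical axis, from 0), 1 point per sperm library by genotype and diet, with sets by read errors in colour and shape. Grey bars give the median of 29 other arms in the same library, which is 19.4% to 32.1% on HFD and 17.2% to 22.5% on ND.

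The 5′ end fixes the seed, and miR-183-5p differed from the other members there. Of 13898 reads that matched the Mir183 hairpin at the 5p arm, 19.96% started 1 base after the mature start and 79.8% at it. Late reads fall outside the count of the member given above. Leaving them out lowers the levels of miR-183-5p and raises the miR-182-5p reads per read of it, by an amount that differs between libraries. The most abundant late form had 1274 of 2774 late reads, and capitals mark its bases 2 to 8, which are shifted by 1 from the seed of miR-183-5p.
miR-183-5p late form: aTGGCACTggtagaattcactg
For miR-182-5p the late share was 0.146% of 30213 reads, and all 448 hairpin reads of miR-96-5p started at the mature start. Among 28 arms compared, miR-183-5p ranked 2 after miR-10a-5p (34.0%), and the median arm had 0.0538%.

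Late starts of miR-183-5p made up 18.9% and 26.2% in Dnmt2-/- HFD, 17.7% and 18.2% in Dnmt2+/+ HFD, 21.3% and 21.1% in Dnmt2-/- ND, and 18.7% and 21.3% in Dnmt2+/+ ND sperm. The shifted form was present in all 8 libraries, and Dnmt2-/- HFD replicate 2 had the highest share. It averaged 20.2 ± 3.97% on HFD and 20.6 ± 1.29% on ND, and 21.9 ± 3.05% in Dnmt2-/- and 18.97 ± 1.60% in Dnmt2+/+ libraries (SD, n = 4 each). The exact permutation p was 0.943 for diet (adjusted 0.943) and 0.0857 for genotype (adjusted 0.171), in the added family of 8 tests.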

How the data were processed

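The deposited sperm values are counts: for each library the authors listed distinct read sequences of 18 to 44 nt with their number of reads. The steps of trimming and alignment were not given in the sources. Per the labels, RNA was extracted with Trizol and libraries made with a TruSeq small RNA kit. The submitters' processing notes name mm10 and GRCm38. The 3T3 libraries of the series were not used.

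Arms came from RefSeq (GRCm38.p6). Reads of 20 to 26 nt that began with an arm's first 20 bases were counted, and CPM are per 1000000 of all reads. Some arms, among them miR-34c-5p, miR-375-3p and miR-122-5p, were not analysed here, so microRNA totals and the ranks of the members leave them out. Untemplated ends and start positions were read against the RefSeq hairpins.

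The 4 groups came from the labels. Counts were tested with edgeR 4.0.16 in R 4.3.3 (quasi-likelihood, filterByExpr, all reads as library size, 1 fit over 8 libraries, Benjamini-Hochberg over 187 arms, threshold 0.05), and with DESeq2 1.42.0 as an alternative, after tests on simulated data. Ratios, shares and lengths were tested by permuting 4 libraries against 4 (two-sided, exact, SciPy 1.17.1), which cannot go below p = 0.0286. After adjustment, a measure at 0.0286 could pass only if most measures of its family were at 0.0286 too. Failing to pass in these tests is therefore weak evidence of no difference. With 2 against 2 the p cannot go below 0.333, so those comparisons are untested. matplotlib 3.10.9 drew the figures. Other settings were TMM, other library sizes, DESeq2, no filter, a wider read window, 1 mismatch, the set as a term, the replicate block and leaving out each library.

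Depth was 10165031 to 19030258 reads, and a count of 0 allows up to 3 counts, or 0.158 to 0.295 CPM. Intervals cover counting error only, since PCR copies are not told apart from separate molecules. Whether replicates came from separate animals is not in the labels. The p-values therefore reflect only how far these libraries spread, and that spread may be technical. The 2 libraries of a group never agreed within sampling noise (chi-square per arm 61.2 to 1142). Named arms were the members, their 3p arms, arms sharing a seed, the 5 most alike and the miR-200 family. The members and lists were chosen with earlier results of these data known.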

Additional observations from a re-analysis of the deposited data

Results flagged for a closer look

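In 11 of 72 checks on 4 libraries of a diet or genotype, 1 library stood far from the other 3. Chance flags a single check about 1 time in 20. The checks share libraries and reads, so the number flagged cannot be compared with that rate. For miR-96-5p, Dnmt2+/+ ND replicate 2 had 10.4 CPM, against 1.29 to 1.90 CPM in the other ND libraries. Among Dnmt2-/- libraries HFD replicate 1 had 9.51 CPM, against 1.13 to 1.90 CPM, and among Dnmt2+/+ libraries ND replicate 1 had 1.89 CPM, against 10.4 to 12.0 CPM. The part of any technical difference in these levels was not tested.

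Dnmt2-/- HFD replicate 2 stood apart from the other HFD libraries in 5 measures. Its log2 ratio of miR-96-5p to miR-183-5p was -6.29, with -4.29 to -3.93 in the others, and that of miR-96-5p to miR-182-5p was -7.79, with -5.63 to -5.30 in the others. Untemplated ends were 13.6% of its miR-182-5p reads and 11.3% of its miR-183-5p reads, with 30.1% to 31.8% and 20% to 21.6% in the others. Late starts of miR-183-5p were 26.2%, with 17.7% to 18.9% in the others. It is the set C library of the HFD group, and the others are set B.

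Among ND libraries, Dnmt2+/+ replicate 2 had a mean miR-182-5p length of 23.57 nt, with 23.69 to 23.70 nt in the others, and 77.5% of its miR-96-5p reads equalled the RefSeq sequence, with 91.7% to 94.1% in the others. Dnmt2+/+ ND replicate 1 had 18.7% late starts of miR-183-5p, with 21.1% to 21.3% in the others.

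Mean read length of miR-183-5p moved in opposite directions. HFD minus ND was -0.0802 nt in Dnmt2-/- and 0.0845 nt in Dnmt2+/+ sperm. Dnmt2-/- minus Dnmt2+/+ was -0.0503 nt on HFD and 0.114 nt on ND. In each case both libraries of a group moved the same way, and the difference between the effects was not tested.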

How the results depend on the processing

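No member passed the threshold under any setting run, and leaving out a library never brought one past it. The sign of the members' fold changes, log2 throughout, held in 91 of 120 comparisons with another setting and in 112 of 120 without 1 library. For a diet or genotype comparison, leaving out a library of a group outside it cannot move the value. Part of the 112 was therefore fixed in advance, and that count overstates how stable the signs were. With TMM factors diet in Dnmt2-/- was -1.73 (miR-182-5p), -0.97 (miR-183-5p) and -0.63 (miR-96-5p), and diet in Dnmt2+/+ -1.28 (miR-182-5p) and -0.98 (miR-183-5p). Genotype on ND was then 0.37 for miR-182-5p and 0.0199 for miR-183-5p, genotype on HFD 0.0288 for miR-183-5p, and the interaction -0.71 for miR-96-5p. DESeq2 gave -1.61, -0.83 and -0.41 for diet in Dnmt2-/-, -1.19 and -0.89 for diet in Dnmt2+/+ (miR-182-5p and miR-183-5p), 0.23 for miR-182-5p by genotype on ND and -0.55 for the miR-96-5p interaction. With microRNA reads as library size diet was -1.41, -0.66 and -0.41 in Dnmt2-/- and -0.85, -0.66 and -0.56 in Dnmt2+/+, genotype on ND was 0.41 for miR-182-5p, and the miR-183-5p interaction was -0.0063. With the set as a term diet was -2.95 for miR-96-5p in Dnmt2-/-, -0.34 for miR-183-5p and -2.91 for miR-96-5p in Dnmt2+/+, and the interaction was 0.30 for miR-182-5p and -0.0390 for miR-96-5p. Against the main scaling, the first 3 settings rescale libraries by microRNA content. The cause of the other changes was not tested.

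Arms called for diet numbered 1 in each genotype. In Dnmt2-/- and Dnmt2+/+ they were 3 and 21 with DESeq2, 20 and 13 with no filter, 0 and 3 with microRNA reads as library size, and 0 and 0 with TMM or the set as a term. Without 1 library they ranged from 0 to 68 in Dnmt2-/- and from 0 to 72 in Dnmt2+/+, and for genotype on ND from 0 to 84. In Dnmt2-/- they were 10 without Dnmt2-/- HFD replicate 2, and leaving out either Dnmt2+/+ ND library gave 68. They were 0 when Dnmt2+/+ HFD replicate 2 or either Dnmt2-/- ND library was left out. In Dnmt2+/+ they were 72 without Dnmt2+/+ ND replicate 2, 7 without either Dnmt2-/- HFD library, and 0 without Dnmt2+/+ ND replicate 1, Dnmt2+/+ HFD replicate 2 or either Dnmt2-/- ND library. The 84 were without Dnmt2+/+ ND replicate 1. In these fits a lone library is assumed to vary like the other groups.

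Without 1 library, miR-96-5p kept its sign but ran from 0.15 to 2.61 for diet in Dnmt2+/+, from -3.35 to -0.28 for genotype on HFD and from -2.70 to -0.25 for genotype on ND, and miR-183-5p ran from 0.50 to 1.57 for diet in Dnmt2-/-. Values that changed sign follow. Diet in Dnmt2-/- ran from -0.0436 to 0.61 for miR-182-5p and from -0.50 to 2.57 for miR-96-5p. The interaction ran from -0.50 to 0.16 for miR-182-5p, from -0.17 to 0.91 for miR-183-5p and from -1.41 to 1.65 for miR-96-5p. By genotype, the log2 ratio of miR-182-5p to miR-183-5p ran from -0.00087 to 0.36, mean length from -0.0878 to 0.0125 nt for miR-182-5p and from -0.00207 to 0.0489 nt for miR-183-5p, and the RefSeq share of miR-182-5p from -1.90 to 0.0410 points. Genotype differences in untemplated ends of miR-96-5p ran from -8.56 to 0.24 points and in the share of microRNA reads from -0.13 to 0.51 points. By diet, miR-183-5p mean length ran from -0.0173 to 0.0420 nt and its late starts from -2.32 to 0.50 points.

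The diet difference in the share of microRNA reads was 0.0375 points without let-7 in the denominator (-1.21 with it) and -0.88 points in set C, where genotype differs too. In set C log2 summed CPM differed by -0.44 by diet. There the log2 ratios differed by 0.0587 (miR-182-5p to miR-183-5p), -2.75 (miR-96-5p to miR-183-5p) and -2.81 (miR-96-5p to miR-182-5p). By genotype the log2 ratio of miR-96-5p to miR-183-5p differed by 0.83 in set A, and that to miR-182-5p by 0.55, and the ratio of miR-182-5p to miR-183-5p by -0.38 in set B.

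Replicate numbers did not pair the libraries (correlation of deviations between groups -0.59 to 0.66). With the replicate block, the arms called stayed at 1 and 1 for diet and 0 for genotype, and no member passed (miR-183-5p for diet in Dnmt2-/- 1.10, edgeR adjusted p = 0.291). By replicate number alone, the genotype difference in the log2 ratio of miR-96-5p was 0.60 to miR-182-5p and 0.50 to miR-183-5p for number 1, and -2.54 and -2.14 for number 2. Depth limits miR-96-5p most, with 15 to 142 reads a library.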
